A study of Mus musculus with 46 samples.

Results

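The 10 integrin genes described here were taken by symbol in the deposited count table: Itga4, whose protein CD49d was the sort marker, with Itgb7, Itgb1, Itgam, Itgal, Itgax, Itgb2, Itgav, Itgb5 and Itga6. They are 10 of 23329 symbols in the table. All 10 passed the filter on low counts in each of the 3 models fitted (MG and BMDM together, MG alone, BMDM alone).

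Gliomas had been raised in nTVA mice with both Ink4a/Arf copies deleted by putting 300000 DF1 cells, a chicken fibroblast line that releases the RCAS-PDGFB-HA virus, into the brain at 5 to 6 weeks of age. Every group shares this genotype and this tumour. From each of 23 tumours, microglia (MG, the brain's resident macrophages) had been sorted by a gate that took CD45+ and CD11b+ cells, left out Ly6C+ and Ly6G+ cells, and kept the CD49d- ones, and bone marrow-derived macrophages (BMDM) as the CD49d+ cells of the same gate, which makes 46 libraries. The study asked how both populations respond to BLZ945, an inhibitor of the CSF1 receptor, to radiation (IR) and to the combination (IR-BLZ945) in regressing and in recurrent tumours. The recurrent stages were IR-BLZ945 (4 mice), BLZ945 (2 mice) and IR (4 mice), the 5-day stages were IR-BLZ945 (3 mice), BLZ945 (4 mice) and IR (2 mice), and 4 mice had received vehicle.

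Integrins are cell surface receptors made of an alpha and a beta chain, which bind matrix proteins or counter-receptors on other cells and link them to the actin skeleton. The alpha 4 chain pairs with beta 1, a receptor for VCAM1 and fibronectin, or with beta 7, a receptor for MAdCAM1 that homes leukocytes to the gut. The leukocyte integrins share beta 2 and hold alpha L (LFA-1, which binds ICAMs), alpha M (CD11b, the complement receptor Mac-1) or alpha X (CD11c, abundant on dendritic cells). Alpha v pairs with beta 5, a vitronectin receptor used in the uptake of dying cells, and alpha 6 with beta 1 as a laminin receptor. In brain tumours CD49d serves to separate blood-derived macrophages from microglia, which carry little of it.

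The promoter windows of 4 of these genes are shown: Itga4 and its partner Itgb7, whose transcripts were lower in MG than in BMDM in all 23 mice, and Itgam and Itgb5, higher in MG in 22 of 23 mice. Each window runs from 250 bases before to 50 bases after the gene start, 5′ to 3′ on the gene's strand (RefSeq, GRCm38.p6). They lie at chr2:79255176-79255475 (plus strand) for Itga4, chr15:102231886-102232185 (minus strand) for Itgb7, chr7:128062390-128062689 (plus strand) for Itgam and chr16:33829415-33829714 (plus strand) for Itgb5. Capitals mark the 6 letters GAGGAA, or TTCCTC on the other strand, the core of the element read by PU.1, a transcription factor of macrophages and other myeloid cells.
Itga4: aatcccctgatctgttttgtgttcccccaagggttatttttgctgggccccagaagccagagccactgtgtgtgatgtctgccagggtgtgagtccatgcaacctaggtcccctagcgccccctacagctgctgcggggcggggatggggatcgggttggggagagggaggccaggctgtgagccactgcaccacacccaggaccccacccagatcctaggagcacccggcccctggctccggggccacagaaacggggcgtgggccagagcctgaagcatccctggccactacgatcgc
Itgb7: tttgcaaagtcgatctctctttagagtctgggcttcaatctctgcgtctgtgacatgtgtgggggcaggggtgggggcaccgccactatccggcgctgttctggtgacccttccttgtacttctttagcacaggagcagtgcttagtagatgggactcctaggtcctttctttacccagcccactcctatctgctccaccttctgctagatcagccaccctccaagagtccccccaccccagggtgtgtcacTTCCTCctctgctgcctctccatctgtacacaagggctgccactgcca
Itgam: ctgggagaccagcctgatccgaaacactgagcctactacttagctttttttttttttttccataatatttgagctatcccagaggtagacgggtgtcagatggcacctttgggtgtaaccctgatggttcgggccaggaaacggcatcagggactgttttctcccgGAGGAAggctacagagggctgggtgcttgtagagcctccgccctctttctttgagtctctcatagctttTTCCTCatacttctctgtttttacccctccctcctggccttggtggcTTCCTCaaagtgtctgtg
Itgb5: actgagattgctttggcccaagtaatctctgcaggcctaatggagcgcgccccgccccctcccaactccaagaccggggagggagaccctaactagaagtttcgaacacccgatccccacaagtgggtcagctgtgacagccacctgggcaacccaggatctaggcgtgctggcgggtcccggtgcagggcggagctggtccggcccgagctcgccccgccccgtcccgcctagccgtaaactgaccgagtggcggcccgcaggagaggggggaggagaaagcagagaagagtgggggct
Of the 7 genes with a window in the RefSeq table, 4 held these letters on either strand: Itgam at 3 places, Itgav at 2, Itgb1 at 1 and Itgb7 at 1. The windows of Itga4, Itgax and Itgb5 held none. Among all 32851 promoter windows of the same length, 28.3% held at least 1 match, so the letters are common, and a match is a description and not a site of binding. Windows of Itgal, Itgb2 and Itga6 are not shown.

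In the GENCODE annotation of GRCm38, the build that the submitters name as mm10, Itga4 (ENSMUSG00000027009) lies on chromosome 2 from 79255426 to 79333123. Counts cover the whole gene, and the opposite strand of Itga4 holds part of Cerkl. No source used here says whether the counting used strand, and reads of Itga4 and Cerkl may not be told apart. Itgb7 lies on chromosome 15 from 102215995 to 102231944, Itgam on chromosome 7 from 128062640 to 128118491 and Itgb5 on chromosome 16 from 33829665 to 33949338.

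Total counts ran from 3007379 to 16993474 per library. Levels below are log2 CPM (counts scaled by TMM-adjusted library totals, CPM), and differences are log2 fold changes ± SE. Tests are edgeR's quasi-likelihood F-tests, and adjusted p-values are Benjamini-Hochberg values over all genes tested in that comparison. A gene was called at an adjusted p under 0.05. Libraries that stood apart were 5 with under 11000 genes at 10 or more counts (MG of 65971 and 68344, BMDM of 122, 124 and 65698) and both of mouse 65698, in which MG and BMDM differed in sex-linked transcripts. These 6 are called doubted. In BMDM, Lars2, a mitochondrial tRNA synthetase gene, ran from 11.43 to 12.98 log2 CPM in recurrence and from 2.99 to 7.76 in vehicle, and the nuclear noncoding RNA Malat1 from 7.74 to 10.79 and from 11.32 to 13.20. In MG both genes overlapped between recurrence and vehicle. Between 5 days and recurrence neither gene overlapped in either population. In MG, Lars2 ran from 5.09 to 8.54 at 5 days and from 11.63 to 15.22 in recurrence, and Malat1 from 10.55 to 12.45 and from 7.88 to 10.29. A model term for Malat1 minus Lars2, used below, can thus hardly be told apart from stage in recurrence against 5 days or, in BMDM, in recurrence against vehicle. The labelled populations differed in their marker lists: 15 microglia genes summed to 9767 to 44683 CPM in MG and 1146 to 12163 in BMDM, and 14 genes of blood-derived macrophages to 49.9 to 1285 in MG and 1147 to 4771 in BMDM. Cdkn2a, the Ink4a/Arf gene deleted in every group, had 0 to 30 counts in MG and 0 to 11 in BMDM libraries. The median log2 difference of all genes was 0.19 between MG and BMDM after 5 days of IR, -0.16 for BMDM of that stage against vehicle, 0.21 for recurrent IR against it and 0.23 for IR-BLZ945 against it. Fewer cells of a type and less RNA per cell cannot be told apart in such bulk samples.

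Per kilobase of exon, the 10 genes spanned a wide range of levels in vehicle tumours. In vehicle MG, Itgb5 stood at 831 ± 260 CPM per kb (SD, n = 4), Itgam at 432 ± 86.3, Itgb2 at 329 ± 54.9 and Itgb1 at 117 ± 28.0. Itgal, Itgb7 and Itga4 ended that order at 3.65 ± 0.40, 1.46 ± 0.84 and 0.34 ± 0.27 CPM per kb. The ranges of Itgam and Itgb2, the 2 chains of Mac-1, overlapped. In vehicle BMDM, Itgb5 (403 ± 243 CPM per kb) and Itgb2 (224 ± 11.9) were again first, with overlapping ranges, and Itgb7 stood at 60.0 ± 26.7, Itgal at 19.4 ± 7.0 and Itga4 last at 10.2 ± 2.89. After 5 days of BLZ945, Itgb7 was first among the 10 in BMDM, at 281 ± 95.2 CPM per kb, and its range overlapped that of Itgb2 (252 ± 61.8).

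Itga4, the alpha 4 chain that the gate selects on, was lower in MG than in BMDM of the same mouse in 23 of 23 mice. Because its protein defines the populations, this difference is given with no test. Over all stages Itga4 ran from 0.60 to 3.35 log2 CPM in MG and from 4.94 to 7.55 in BMDM, so the populations did not overlap. The raw counts behind these levels were 13 to 136 in MG and 307 to 2955 in BMDM. The MG minus BMDM difference was -4.50 in recurrent IR-BLZ945 tumours, -4.08 in recurrent BLZ945, -3.11 in recurrent IR, -4.34 after 5 days of IR-BLZ945, -5.13 at 5 days on BLZ945, -4.72 at 5 days past IR and -4.88 in vehicle. It was thus smallest in size in recurrent IR tumours, where Itga4 was 2.31, 2.96, 2.87 and 3.22 in MG and 5.92, 5.99, 5.84 and 6.13 in BMDM.

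Within a population, edgeR's test called Itga4 in none of the 26 comparisons between stages. In BMDM its levels were 5.54, 5.53, 6.11 and 6.77 in recurrent IR-BLZ945, 4.94 and 5.98 in recurrent BLZ945 and the 4 values given above in recurrent IR, against 7.55, 7.26, 7.09 and 6.51 in vehicle. The recurrent BLZ945 and IR libraries lay below all vehicle libraries, and those of recurrent IR-BLZ945 overlapped them. The differences from vehicle were -1.04 ± 0.37, -1.56 ± 0.48 and -1.15 ± 0.37 for recurrent IR-BLZ945, BLZ945 and IR (adjusted p = 0.309, 0.375 and 0.108). The recurrent IR difference was called with DESeq2 (-1.15, adjusted p = 0.0483) and without the doubted libraries (-1.19 ± 0.28, adjusted p = 0.0162). Without those libraries edgeR also called Itga4 lower in recurrence than at 5 days for BLZ945 (-1.40 ± 0.39, adjusted p = 0.0435). With all libraries that difference was -1.17 (adjusted p = 0.15). For IR, removing the doubted libraries leaves 65972 alone at 5 days, at 7.33. The recurrence difference was then -1.42, beside -0.70 (adjusted p = 0.297) with all libraries. Removing 65972 instead leaves the doubted 65698 alone, at 5.23. The 5-day IR difference from vehicle was then -1.92, beside -0.45 with both. Among the 13 comparisons fitted in MG, the largest difference was that of recurrent IR-BLZ945 against recurrent IR, -1.40 ± 0.49 (adjusted p = 0.216), where the groups did not overlap. The change of Itga4 in MG minus that in BMDM was 1.76 ± 0.56 in recurrent IR (adjusted p = 0.504) and did not pass. Because the CD49d gate sets which cells enter each side, no conclusion is drawn from that test.

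The genes whose levels across libraries were most like those of Itga4 were Prkcq, Nup153, Prkar2a, Stxbp6 and Usp47. Likeness was the lower of the Pearson correlations over 23 MG and over 23 BMDM libraries, among 12441 genes tested in both populations. It was 0.552 for Prkcq, a protein kinase C isoform, 0.546 for Nup153, a nuclear pore protein, 0.544 for Prkar2a, a regulatory subunit of protein kinase A, 0.529 for Stxbp6 and 0.514 for Usp47, a ubiquitin protease. Of the other integrin genes Itgb1 came nearest, at rank 389 with 0.300. The libraries share stages and scaling, so these values only describe the table.

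**Figure D1:**
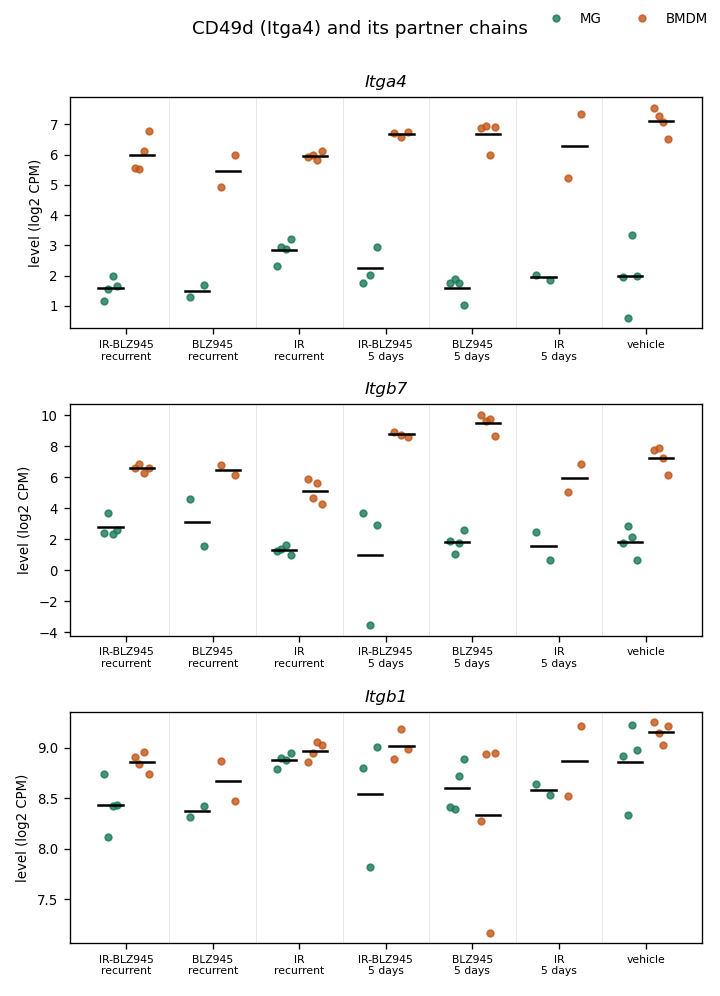
Levels of Itga4, Itgb7 and Itgb1 (log2 CPM, vertical axes) in each library, by stage, with MG left of BMDM and black lines at group means. Itga4 and Itgb7 are lower in MG than in BMDM of the same stage without overlap in any of the 7 stages, while the Itgb1 ranges over all stages overlap (7.82 to 9.22 in MG, 7.17 to 9.25 in BMDM); the MG point of Itgb7 at -3.53 is a library with 0 counts.

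The other 9 genes were tested between the populations in 7 stages, and 18 of these 63 tests were called. By stage, the called members were 2 in recurrent IR-BLZ945 (4.41% of all 15901 genes were called), 0 in recurrent BLZ945 (0.0818%), 1 in recurrent IR (1.91%), 4 after 5 days of IR-BLZ945 (12.8%), 4 at 5 days on BLZ945 (21.8%), 4 at 5 days past IR (9.09%) and 3 in vehicle (9.14%). For recurrent BLZ945, where edgeR's quasi-likelihood test called none, 1 member had an unadjusted p under 0.05 and DESeq2 called 0. The calls fell on Itgb7 in 6 stages and Itgal in 4, lower in MG, and on Itgam in 3, Itgb5 in 2, Itga6 in 2 and Itgav in 1, higher in MG. Itgb1, Itgb2 and Itgax were not called between the populations in any stage by edgeR's test.

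Between stages within MG, 12 tests were called. Against vehicle, 6 of 60 were: 3 in recurrent IR-BLZ945 (4.82% of the 14534 genes tested), 1 in recurrent BLZ945 (3.53%), 1 in recurrent IR (4.33%), 1 after 5 days of IR-BLZ945 (13.4%), and 0 after 5 days of BLZ945 (0.303%) or of IR (1.99%). For these last 2 stages, 2 members each had an unadjusted p under 0.05, and DESeq2 called 0 and 1. Recurrence against 5 days gave 3 for IR-BLZ945 (28.1%), 1 for BLZ945 (8.24%) and 1 for IR (11.6%). The combination gave 1 call, against BLZ945 at 5 days (9.84%). It gave 0 against IR at 5 days (0.227%) and 0 in recurrence against BLZ945 or IR (0% each), where 2, 2 and 4 members had an unadjusted p under 0.05 and DESeq2 called 0, 1 and 1.

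Within BMDM, 13 tests were called. Against vehicle, 5 of 60 were: 1 in recurrent IR (1.87% of the 14568 genes tested), 3 after 5 days of BLZ945 (5.51%) and 1 after 5 days of IR (1.07%). None was called in recurrent IR-BLZ945 (0.0275%), in recurrent BLZ945 (0%) or after 5 days of IR-BLZ945 (0.57%), where 1, 1 and 4 members had an unadjusted p under 0.05 and DESeq2 called 0, 0 and 1. Recurrence against 5 days gave 1 for IR-BLZ945 (3.69%), 2 for BLZ945 (6.82%) and 3 for IR (12.5%), and the combination gave 2 against IR at 5 days (2.36%). It gave 0 against BLZ945 at 5 days (3.58%) and 0 in recurrence against BLZ945 or IR (0% each), where 1, 0 and 1 members had an unadjusted p under 0.05 and DESeq2 called none. No member was called for a response that differed between MG and BMDM in the 6 stages against vehicle (0% of genes in recurrent IR-BLZ945, 0% in recurrent BLZ945, 0.0189% in recurrent IR, and 0.358%, 1.65% and 0.0755% at 5 days of IR-BLZ945, BLZ945 and IR), where 2 or 3 members a stage had an unadjusted p under 0.05. DESeq2 called 1 there, Itgb7 at 5 days of BLZ945 (-2.41, adjusted p = 0.0495), and the fit with the mouse as a block called another, Itga6 in the same stage (3.41 ± 0.86, adjusted p = 0.042). Without mouse 65975 that stage had 2 calls, Itga6 (3.61 ± 0.71, adjusted p = 0.002) and Itgb5 (2.13 ± 0.55, adjusted p = 0.0204).

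**Figure D2:**
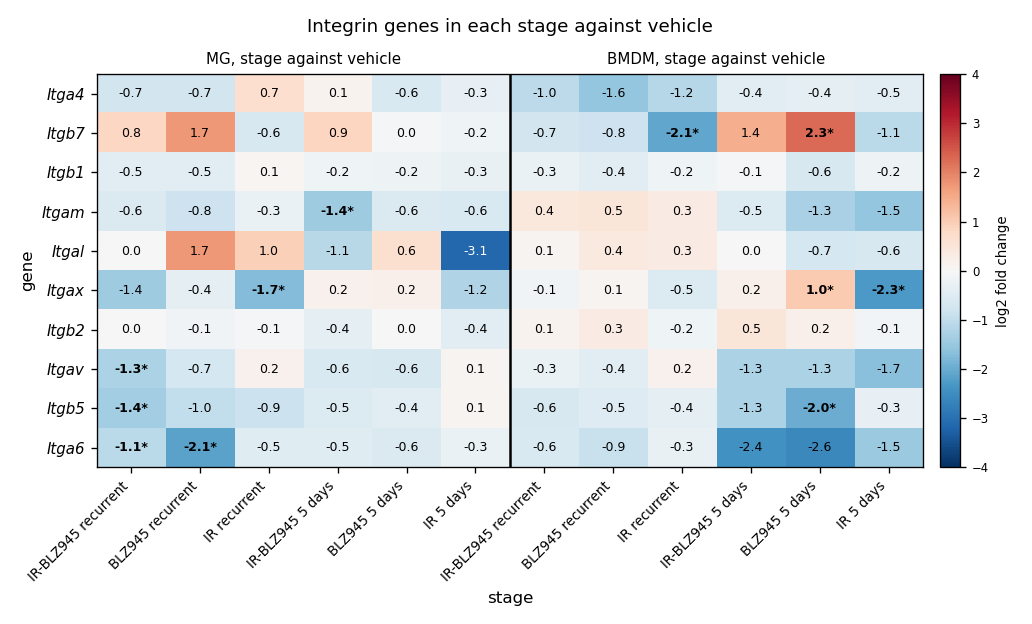
Log2 fold changes of the 10 genes (rows) in each stage against vehicle (columns), in MG on the left and in BMDM on the right. Bold values with a star were called at an adjusted p under 0.05 by edgeR's quasi-likelihood test, 6 in MG and 5 in BMDM; the colour scale ends at 4 in either direction.

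Itgb7, the beta 7 chain that pairs with alpha 4, was lower in MG than in BMDM of the same mouse in 23 of 23 mice. Its ranges over all stages overlapped, reaching 4.60 in MG and starting at 4.29 in BMDM, but within each stage they did not. After 5 days of BLZ945 its levels were 1.87, 1.05, 1.75 and 2.62 in MG and 10.01, 9.63, 9.77 and 8.68 in BMDM, a difference of -7.70 ± 0.74 (adjusted p = 8.44e-10). In vehicle they were 1.79, 2.84, 2.14 and 0.66 in MG and 7.75, 7.86, 7.21 and 6.12 in BMDM (-5.37 ± 0.67, adjusted p = 6.72e-07). The populations did not overlap in either stage. Further calls were -3.72 ± 0.62 in recurrent IR-BLZ945 (adjusted p = 0.000139), -3.96 ± 0.64 in recurrent IR (adjusted p = 0.000207), -5.93 ± 0.79 after 5 days of IR-BLZ945 (adjusted p = 2.3e-06) and -4.43 ± 0.91 after 5 days of IR (adjusted p = 0.00127). The last was -2.58 with an adjusted p of 0.183 without mouse 65972. In recurrent BLZ945, with 4.60 and 1.58 in MG and 6.78 and 6.14 in BMDM, it was not called.

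Within BMDM, Itgb7 was high after 5 days of BLZ945 and low in recurrent IR tumours. Against vehicle it rose by 2.25 ± 0.42 after 5 days of BLZ945 (adjusted p = 0.00466), with all 4 libraries above the 4 of vehicle. It fell to 5.88, 4.69, 5.60 and 4.29 in recurrent IR, below all vehicle libraries (-2.09 ± 0.42, adjusted p = 0.0154). That call had an adjusted p of 0.0501 to 0.0716 without vehicle 41, 68344 or 68346, and with a term that set mouse numbers under 1000 apart from longer ones the difference was -1.48 ± 0.40 (adjusted p = 0.056). After 5 days of IR-BLZ945 Itgb7 also lay above all vehicle libraries, but edgeR's test did not call it with all libraries (1.44, adjusted p = 0.127). This rise was called with DESeq2 (1.50, adjusted p = 0.0278), without the doubted libraries (1.42 ± 0.38, 0.0381) and with the term for mouse numbers (2.05 ± 0.44, 0.021). In recurrence against 5 days Itgb7 fell by 3.09 on the log2 scale for BLZ945 (SE 0.58, adjusted p = 0.00468), with 6.78 and 6.14 in recurrence, and by 2.18 for IR-BLZ945 (SE 0.44, adjusted p = 0.00882), with 6.59, 6.85, 6.28 and 6.59 in recurrence and 8.93, 8.73 and 8.62 at 5 days. Neither pair of groups overlapped, and the BLZ945 call had an adjusted p of 0.063 without mouse 70696. At 5 days Itgb7 was higher after IR-BLZ945 than after IR, which stood at 5.05 and 6.87 (2.52 ± 0.58, adjusted p = 0.0265). This call ended without mouse 65696 or 65698 (1.87 to 2.45, adjusted p = 0.0733 to 0.324) and without the doubted libraries (1.88 ± 0.66, adjusted p = 0.147). With Malat1 minus Lars2 (log2 CPM) as a term in the model, the fall in recurrent IR against vehicle was -4.03 ± 0.55, and those in recurrence against 5 days were -4.75 ± 0.58 for BLZ945 and -3.72 ± 0.49 for IR-BLZ945, all called (adjusted p = 0.00593, 0.000383 and 0.00187). With that term recurrent IR was also called against 5 days of IR (-3.85 ± 0.76, adjusted p = 0.0324, beside -1.01 and 0.168 without the term), while IR-BLZ945 against IR at 5 days was 1.46 ± 0.46 and no longer called (adjusted p = 0.203). In BMDM the term can hardly be told apart from recurrence against vehicle or 5 days, so no conclusion is drawn from these larger falls.

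Transcripts of dendritic cells moved with Itgb7 in BMDM in some stages but not in all. The summed level of a list of 7 dendritic cell genes (Flt3, Zbtb46, Xcr1, Clec9a, Cd209a, Ccr7 and Batf3) was 150 to 377 CPM in recurrent IR-BLZ945, 127 to 308 in recurrent BLZ945, 58.1 to 110 in recurrent IR, 2674 to 3614 after 5 days of IR-BLZ945, 1999 to 3450 after 5 days of BLZ945, 2312 to 2356 after 5 days of IR and 603 to 968 in vehicle. The list was thus above vehicle at 5 days in each treatment and below it in each recurrence, while Itgb7 at 5 days of IR was not above vehicle. In recurrent BLZ945 and IR-BLZ945, Itgb7 ran from 6.14 to 6.85 and lay inside the vehicle range of 6.12 to 7.86. The list of 12 T and NK cell genes lay between 54.2 and 307 CPM after 5 days of BLZ945, between 1.26 and 7.13 in recurrent IR and between 23.95 and 306 in vehicle BMDM. The part of these transcripts in the levels of Itgb7 was not tested. In MG the dendritic list stayed between 9.15 and 94.8 CPM. In BMDM all 7 dendritic genes had counts in 22 of the 23 libraries, and Xcr1 was at 0 in that of 65698.

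**Figure D3:**
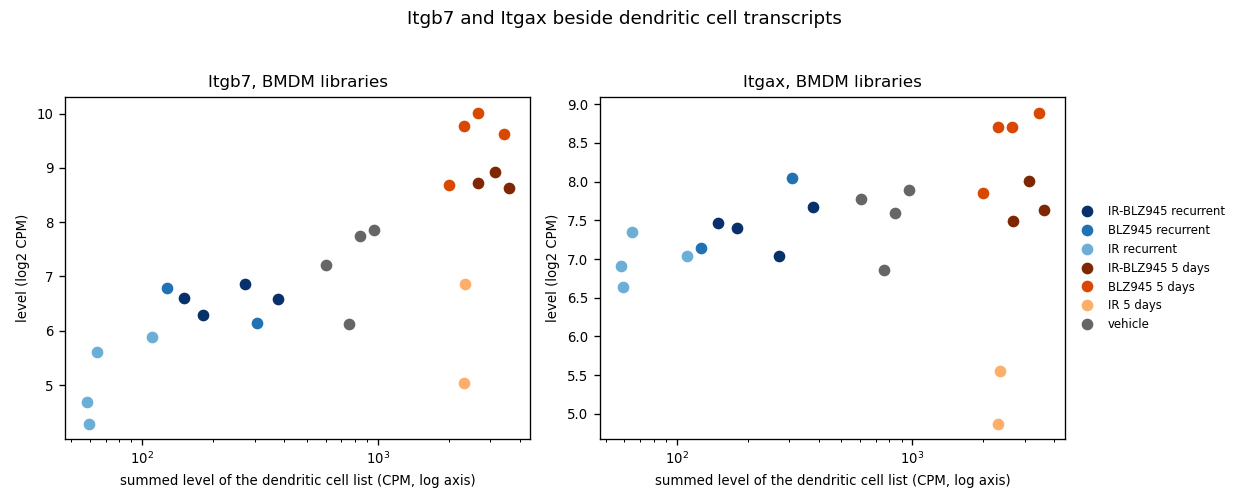
Levels of Itgb7 and Itgax (log2 CPM, vertical axes) in the 23 BMDM libraries against the summed CPM of the 7 dendritic cell genes (log axis), coloured by stage. Libraries of recurrent IR tumours lie lowest on the dendritic axis (58.1 to 110 CPM), and the pair after 5 days of IR has a high dendritic sum of 2312 and 2356 CPM with Itgax at 4.87 and 5.55.

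Itgb1, the beta 1 chain that can pair with alpha 4, alpha v and alpha 6, was not called in any comparison. It ran from 7.82 to 9.22 log2 CPM over the 23 MG libraries and from 7.17 to 9.25 over the 23 BMDM libraries. Mean levels of the 7 stages lay between 8.37 and 8.88 in MG and between 8.33 and 9.16 in BMDM. The lowest BMDM value was that of mouse 124 after 5 days of BLZ945, a doubted library, at 7.17, beside 8.28, 8.93 and 8.95 in the other BMDM of that stage. The difference of that stage from vehicle was -0.64 ± 0.28 (adjusted p = 0.165), with no overlap between the groups.

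Itgam encodes CD11b, for which both populations were sorted, and its transcript was higher in MG than in BMDM in 22 of 23 mice. In vehicle its levels were 11.39, 10.75, 10.90 and 11.21 in MG and 9.70, 9.66, 9.60 and 7.66 in BMDM (1.73 ± 0.36, adjusted p = 0.001). On BLZ945 for 5 days they were 10.24, 10.32, 10.20 and 10.86 in MG and 8.0, 8.77, 6.81 and 7.91 in BMDM (2.40 ± 0.37, adjusted p = 4.75e-06). The populations did not overlap in either stage. The IR 5-day difference was 2.69 ± 0.53 (adjusted p = 0.000842), which was 2.11 with an adjusted p of 0.101 without mouse 65698. In the other 4 stages it was not called by edgeR's test, and DESeq2 called it in recurrent IR (1.12, adjusted p = 0.048).

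Within MG, Itgam fell to 9.37, 9.76 and 9.44 after 5 days of IR-BLZ945, below every vehicle library (-1.43 ± 0.23, adjusted p = 0.000925). It was also lower in that stage than after 5 days of BLZ945 alone (-0.85 ± 0.23, adjusted p = 0.0242), a call that ended without mouse 65696 (-0.76, adjusted p = 0.0675), with the term for mouse numbers (-1.02 ± 0.26, adjusted p = 0.0573) and in 1 fit over all 46 libraries (-0.90 ± 0.39, adjusted p = 0.166). In recurrent IR-BLZ945 tumours Itgam stood at 10.93, 10.25, 10.34 and 10.47, above the 5-day libraries (0.86 ± 0.23, adjusted p = 0.00925). With the Malat1 minus Lars2 level as a term in the model that difference was 0.77 ± 0.36 (adjusted p = 0.277), and in 1 fit over all 46 libraries 0.99 ± 0.39 (adjusted p = 0.0651).

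Within BMDM, Itgam was higher in recurrence than at 5 days for BLZ945 and for IR. Recurrent BLZ945 tumours had 10.38 and 8.80, against the 4 BLZ945 5-day values given above (1.78 ± 0.53, adjusted p = 0.0443). Recurrent IR tumours had 9.45, 9.91, 9.44 and 9.78, against 6.60 and 8.39 after 5 days of IR (1.87 ± 0.60, adjusted p = 0.0456). The groups did not overlap in either pair. The BLZ945 call ended without any 1 of 122, 124, 65975 or 67668 (0.77 to 1.76, adjusted p = 0.063 to 0.713) and without the doubted libraries (1.38 ± 0.55, adjusted p = 0.134), as it did with RLE size factors, no filter or the term for mouse numbers (1.67 to 2.13, adjusted p = 0.0525 to 0.0814). The IR call ended without 65698 or any 1 of the 4 recurrent libraries (1.23 to 1.93, adjusted p = 0.0612 to 0.372) and without the doubted libraries (1.22 ± 0.65, adjusted p = 0.243), had an adjusted p of 0.0569 with no filter, and was 3.07 ± 0.81 (adjusted p = 0.0162) without 65972. Lars2 and Malat1 moved with these comparisons, and with a term for them the differences were 0.36 ± 0.85 for BLZ945 and -0.15 ± 1.11 for IR (adjusted p = 0.856 and 1). Vehicle BMDM ran from 7.66 to 9.70 and overlapped both recurrent stages. Against vehicle, 5 days of BLZ945 and of IR were -1.29 and -1.54 (adjusted p = 0.0946 and 0.189). Both were called in 1 fit over all 46 libraries (-1.33 ± 0.36 and -1.60 ± 0.47, adjusted p = 0.0159 and 0.0418). Without vehicle 65967 both were also called (-1.59 ± 0.41 and -1.83 ± 0.53, adjusted p = 0.0318 and 0.0437).

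Itgal, the alpha L chain of LFA-1, was lower in MG than in BMDM in 22 of 23 mice. In vehicle its levels were 4.37, 4.57, 4.75 and 4.64 in MG and 7.20, 7.47, 6.87 and 6.12 in BMDM (-2.41 ± 0.68, adjusted p = 0.0164). In recurrent IR-BLZ945 they were 4.61, 3.87, 4.34 and 5.32 in MG and 7.20, 6.54, 7.31 and 7.14 in BMDM (-2.45 ± 0.68, adjusted p = 0.0258). The populations did not overlap in either stage, but the vehicle call ended without mouse 41, 65966 or 78 (-2.49 to -2.21, adjusted p = 0.0545 to 0.106) and the other without any 1 of its 4 mice (-2.75 to -2.27, adjusted p = 0.0714 to 0.168). The vehicle call also ended with the Malat1 minus Lars2 term (-2.42 ± 0.79, adjusted p = 0.0591) and that of recurrent IR-BLZ945 with no filter (-2.45, adjusted p = 0.057), and without the doubted libraries recurrent IR was called (-2.09 ± 0.50, adjusted p = 0.0144). In the IR-BLZ945 5-day stage MG had 3.81, 4.01 and, in mouse 65971, 0 counts, against 7.16, 7.28 and 6.17 in BMDM (-3.56 ± 0.83, adjusted p = 0.00318). In the IR 5-day stage the groups overlapped, with 2.08 and 0.21 in MG and 1.90 and 7.25 in BMDM. The call of that stage (-4.90 ± 1.09, adjusted p = 0.00279) rested on mouse 65972: without it the difference was 0.19 (adjusted p = 1), and with the mouse as a block it was -3.39 ± 1.51 (adjusted p = 0.176).

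Within MG, Itgal was higher in recurrent IR tumours, at 5.04, 5.97, 5.52 and 5.07, than after 5 days of IR (4.10 ± 1.06, adjusted p = 0.0161). The groups did not overlap, and the call ended without 65698 or 65972 (3.40 to 5.47, adjusted p = 0.057 to 0.178) and with the Malat1 minus Lars2 term (4.99 ± 1.48, adjusted p = 0.104). Against vehicle, the 2 libraries after 5 days of IR lay lower (-3.13 ± 1.01, adjusted p = 0.121), which did not pass in edgeR's test but did with DESeq2 (-3.14 ± 0.86, adjusted p = 0.00724). Within BMDM Itgal was not called between stages. Without mouse 65972, which leaves the doubted 65698 alone after 5 days of IR, that stage was -5.12 against vehicle. Recurrent IR was then 5.45 and IR-BLZ945 at 5 days 5.11 against that single library.

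Itgax, the alpha X chain CD11c, was not called between the populations in any stage with all libraries (after 5 days of IR it was 1.46 with an adjusted p of 0.0934, and 2.46 ± 0.76 and 0.0429 without 65972), but differed between stages in both. Within MG it stood at 6.05, 6.05, 6.55 and 5.77 in recurrent IR and at 6.82, 8.02, 6.62 and 9.10 in vehicle (-1.73 ± 0.46, adjusted p = 0.0325). The groups did not overlap. The call ended without vehicle 65967 or 78 or any 1 of the 4 recurrent libraries (-2.05 to -1.06, adjusted p = 0.0519 to 0.253). In recurrent IR-BLZ945 MG had 6.33, 5.50, 7.01 and 6.92, below the 8.06, 7.90 and 8.08 at 5 days (-1.59 ± 0.48, adjusted p = 0.0198), a call that ended without 67169 or 67543 (-1.44 to -1.28, adjusted p = 0.061 to 0.0766). With the Malat1 minus Lars2 term these differences were -1.29 ± 0.48 and -0.53 ± 0.77 (adjusted p = 0.196 and 0.766).

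In BMDM, Itgax was low after 5 days of IR. It stood there at 4.87 and 5.55, below the 7.60, 7.89, 7.78 and 6.86 of vehicle (-2.29 ± 0.38, adjusted p = 0.00214). It was higher after 5 days of IR-BLZ945, at 8.01, 7.49 and 7.64, than after IR alone (2.48 ± 0.39, adjusted p = 0.00226). Recurrent IR tumours, at 7.04, 6.91, 7.35 and 6.64, also lay above the IR 5-day pair (1.74 ± 0.37, adjusted p = 0.00488). None of these groups overlapped. All 3 calls rest on 2 mice after IR: without the doubted 65698 the differences were -1.97, 2.16 and 1.42 (adjusted p = 0.117, 0.0743 and 0.12). With the Malat1 minus Lars2 term the recurrence difference was 0.89 ± 0.68 (adjusted p = 0.811). After 5 days of BLZ945 Itgax was 8.71, 8.89, 8.71 and 7.86, which overlapped vehicle (1.03 ± 0.28, adjusted p = 0.0316). That call ended without 122, 123, 124 or vehicle 41, 65966 or 65967 (0.87 to 1.12, adjusted p = 0.0522 to 0.0784) and without the doubted libraries (0.90 ± 0.32, adjusted p = 0.141), as it did with the term for mouse numbers (0.86, adjusted p = 0.0818) and in 1 fit over all 46 libraries (1.01, adjusted p = 0.0849).

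Itgb2, the shared beta chain of the leukocyte integrins, was not called by edgeR's test in any comparison. It ran from 9.37 to 10.19 log2 CPM in MG and from 9.02 to 10.12 in BMDM, the narrowest span of the 10 genes in both populations. It was higher in MG in 19 of 23 mice, and in vehicle the MG minus BMDM difference was 0.56 ± 0.20 (adjusted p = 0.0784) with no overlap between the libraries. DESeq2 called it higher in MG in vehicle (0.53, adjusted p = 0.0344) and in recurrent IR (0.67, adjusted p = 0.0127), and edgeR called the vehicle difference without the doubted libraries (0.56, adjusted p = 0.0491).

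**Figure D4:**
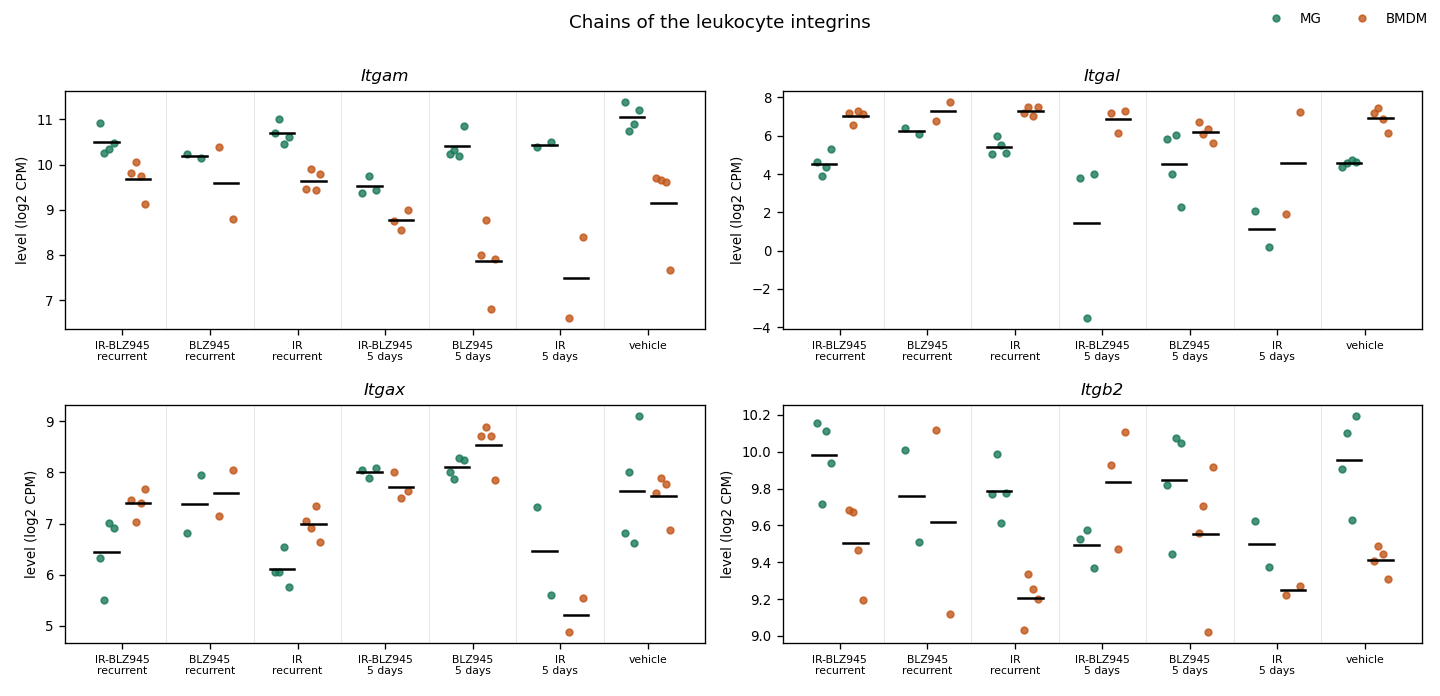
Levels of Itgam, Itgal, Itgax and Itgb2 (log2 CPM, vertical axes, each with its own range) in each library, by stage, with MG left of BMDM and black lines at group means. Itgam is higher in MG and Itgal lower in MG in most stages, Itgax in BMDM is lowest after 5 days of IR (4.87 and 5.55), and Itgb2 spans little more than 1 log2 unit.

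Itgb5, the beta 5 chain, was higher in MG than in BMDM in 22 of 23 mice. After 5 days of BLZ945 it was 11.32, 10.19, 11.04 and 11.31 in MG and 6.86, 7.28, 8.55 and 9.63 in BMDM (2.54 ± 0.43, adjusted p = 2.05e-05). On IR-BLZ945 for 5 days it was 11.05, 10.22 and 11.20 in MG and 8.97, 8.85 and 9.60 in BMDM (1.70 ± 0.48, adjusted p = 0.0157). The populations did not overlap in either stage, and the second call ended without 65696 or 67537 (1.60 to 1.78, adjusted p = 0.0519 to 0.0734). The fit with the mouse as a block called a pair of further stages, vehicle (1.19 ± 0.32, adjusted p = 0.0208, beside 1.04 and 0.112 without the block) and 5 days of IR (1.48 ± 0.45, adjusted p = 0.0393, beside 1.47 and 0.111). Both were also called with the Malat1 minus Lars2 term (1.68 ± 0.50 and 1.91 ± 0.60, adjusted p = 0.0343 and 0.0369). Within BMDM the same BLZ945 5-day libraries were lower than those of vehicle, which stood at 9.85, 9.38, 10.59 and 11.35, with 1 BLZ945 library inside the vehicle range (-1.99 ± 0.50, adjusted p = 0.0243). That call ended without 122, 123, 124 or vehicle 65966 or 65967 (-2.0 to -1.51, adjusted p = 0.0503 to 0.0791) and without the doubted libraries (-1.58 ± 0.59, adjusted p = 0.159). The 15 microglia genes in BMDM summed to 1146 to 3317 CPM after 5 days of BLZ945 and 2177 to 3441 after 5 days of IR-BLZ945. In vehicle BMDM they summed to 6307 to 11422. Their part in the BMDM levels of Itgb5, and of Itga6 below, was not tested.

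Within MG, Itgb5 was lower in recurrent IR-BLZ945 tumours, at 10.22, 10.32, 9.70 and 10.22, than in vehicle, at 11.41, 11.34, 11.11 and 12.07 (-1.40 ± 0.28, adjusted p = 0.0113). The groups did not overlap, and the adjusted p was 0.0534 to 0.0566 without 67947 or vehicle 65967. Against 5 days the difference was -0.86 ± 0.29 (adjusted p = 0.0325) with overlap, and that call ended without 6 of the 7 libraries (65696, 67537 or any 1 of the 4 recurrent ones, -0.86 to -0.69, adjusted p = 0.0652 to 0.124). With the Malat1 minus Lars2 term the 2 differences were -1.31 ± 0.35 and -0.71 ± 0.51 (adjusted p = 0.173 and 0.498), and in 1 fit over all 46 libraries -1.39 ± 0.41 and -0.75 ± 0.43 (adjusted p = 0.0779 and 0.224). Recurrent BLZ945 (10.327 to 10.605) and recurrent IR (10.123 to 11.098) also lay below vehicle, which started at 11.106, but were not called with all libraries in edgeR's test. Recurrent IR was -0.85 (adjusted p = 0.0928), and was called with DESeq2 (-0.84, 0.0326) and without the doubted libraries (-1.07 ± 0.28, 0.021). Against 5 days of IR it was -0.96 (adjusted p = 0.0583), called with DESeq2 (0.0244) and RLE size factors (0.0479).

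Itgav, the alpha v chain, was called between the populations with all libraries only after 5 days of IR, at 6.36 and 7.83 in MG and 4.52 and 5.61 in BMDM, with no overlap (2.11 ± 0.60, adjusted p = 0.0193). That call ended without either mouse, 65698 or 65972 (1.86 to 2.21, adjusted p = 0.173 to 0.178) and without the doubted libraries (2.21 ± 0.77, adjusted p = 0.0808), while that at 5 days of BLZ945 was called without 65975 (1.32 ± 0.46, adjusted p = 0.0351, beside 0.84 and 0.139 with it). Within MG, recurrent IR-BLZ945 libraries stood at 6.30, 5.99, 5.78 and 5.43, against 7.07, 6.22, 6.83 and 7.99 in vehicle (-1.26 ± 0.35, adjusted p = 0.0413). These groups overlapped, and the call ended without 67543, 67947, 68362 or vehicle 41, 65966 or 65967 (-1.40 to -0.87, adjusted p = 0.0611 to 0.216), as it did with RLE size factors and in 1 fit over all 46 libraries (-1.26 to -1.15, adjusted p = 0.0609 to 0.109). Within BMDM, recurrent IR tumours had 6.92, 7.21, 6.42 and 7.43, all above the pair after 5 days of IR (1.84 ± 0.58, adjusted p = 0.0431). That call ended without 65698, 68343, 68344 or 68346 (1.38 to 1.88, adjusted p = 0.0618 to 0.347) and without the doubted libraries (1.37 ± 0.67, adjusted p = 0.2). With the Malat1 minus Lars2 term these MG and BMDM differences were -0.69 ± 0.42 and 1.18 ± 1.20 (adjusted p = 0.711 and 0.876). Vehicle BMDM ran from 5.48 to 7.25 for Itgav and overlapped both the recurrent IR libraries and the IR 5-day pair. Against vehicle, 5 days of IR was -1.68 (adjusted p = 0.148), called with DESeq2 (-1.64 ± 0.56, adjusted p = 0.0423). For 5 days of BLZ945 it was -1.27 (adjusted p = 0.0911), called in 1 fit over all 46 libraries (-1.30 ± 0.41, adjusted p = 0.0396).

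Itga6, the alpha 6 chain of laminin receptors, differed between the populations at 5 days of both BLZ945 treatments while the populations overlapped in vehicle. After 5 days of BLZ945 it was 7.44, 7.67, 7.59 and 8.03 in MG and 3.30, 5.00, -1.05 and 7.26 in BMDM (2.09 ± 0.60, adjusted p = 0.00932). The populations did not overlap, but BMDM values were widely spread, and the difference was 3.75 ± 0.58 without mouse 65975, 3.56 ± 0.67 with the mouse as a block and 1.17 ± 0.40 without the doubted libraries, all still called (adjusted p = 7.8e-06, 0.00047 and 0.0343). On IR-BLZ945 for 5 days it was 7.41, 7.91 and 7.92 in MG and 5.32, 6.27 and 5.52 in BMDM (2.00 ± 0.69, adjusted p = 0.0481), a call that ended without any 1 of its 3 mice, 65696, 65971 or 67537 (1.81 to 2.34, adjusted p = 0.0985 to 0.17), or with no filter (1.99, adjusted p = 0.0844). In vehicle it was 8.56, 7.71, 8.41 and 8.59 in MG and 7.98, 7.65, 8.42 and 8.61 in BMDM (0.14 ± 0.57, adjusted p = 0.936). Within BMDM the BLZ945 and IR-BLZ945 5-day libraries lay below all vehicle libraries (-2.58 ± 0.80 and -2.41 ± 0.89), and neither passed with all libraries in edgeR's test (adjusted p = 0.0599 and 0.202). The BLZ945 difference was called with DESeq2 (-2.55, adjusted p = 0.0105), with the term for mouse numbers (-2.94, 0.0207), with the Malat1 minus Lars2 term (-2.69, 0.0425), in 1 fit over all 46 libraries (-2.60, 0.00539) and without mouse 124 or 65975 (-2.18 and -4.37, 0.0382 and 0.00101). The IR-BLZ945 difference was called without the doubted libraries (-2.42 ± 0.44, adjusted p = 0.00529), with the term for mouse numbers (-3.53, 0.0401) and in 1 fit (-2.45, 0.0496).

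Within MG, Itga6 was lower in recurrence after BLZ945. It fell to 5.87 and 6.37 in recurrent BLZ945 tumours, below all vehicle libraries (-2.14 ± 0.30, adjusted p = 0.00224) and below all 5-day libraries (-1.56 ± 0.29, adjusted p = 0.0023). The second call had an adjusted p of 0.061 without 67668. In recurrent IR-BLZ945 it was 7.52, 7.29, 7.25 and 7.03, also below all vehicle libraries (-1.08 ± 0.22, adjusted p = 0.0135), with an adjusted p of 0.052 to 0.0554 without 67947 or vehicle 65967. In 1 fit over all 46 libraries these 3 differences were -2.22 ± 0.79, -1.56 ± 0.76 and -1.07 ± 0.58 (adjusted p = 0.175, 0.266 and 0.362). The call against 5 days of BLZ945 ended with the Malat1 minus Lars2 term (-1.17 ± 0.37, adjusted p = 0.136), as did that of recurrent IR-BLZ945 against vehicle (-0.81 ± 0.27, adjusted p = 0.273). Transcripts of glioma and oligodendrocyte precursor cells moved with the recurrent stages: the summed level of their 7 genes in MG was 77.1 to 324 CPM in recurrent IR-BLZ945, 410.1 to 692 in recurrent BLZ945, 308 to 611 in recurrent IR and 55.3 to 95.9 in vehicle. All 7 genes had counts in each recurrent MG library, while Dll3 was at 0 in 2 and Pdgfra in 1 of the 4 vehicle MG libraries. Their part in the levels of Itga6, Itgb5 and Itgav was not tested.

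**Figure D5:**
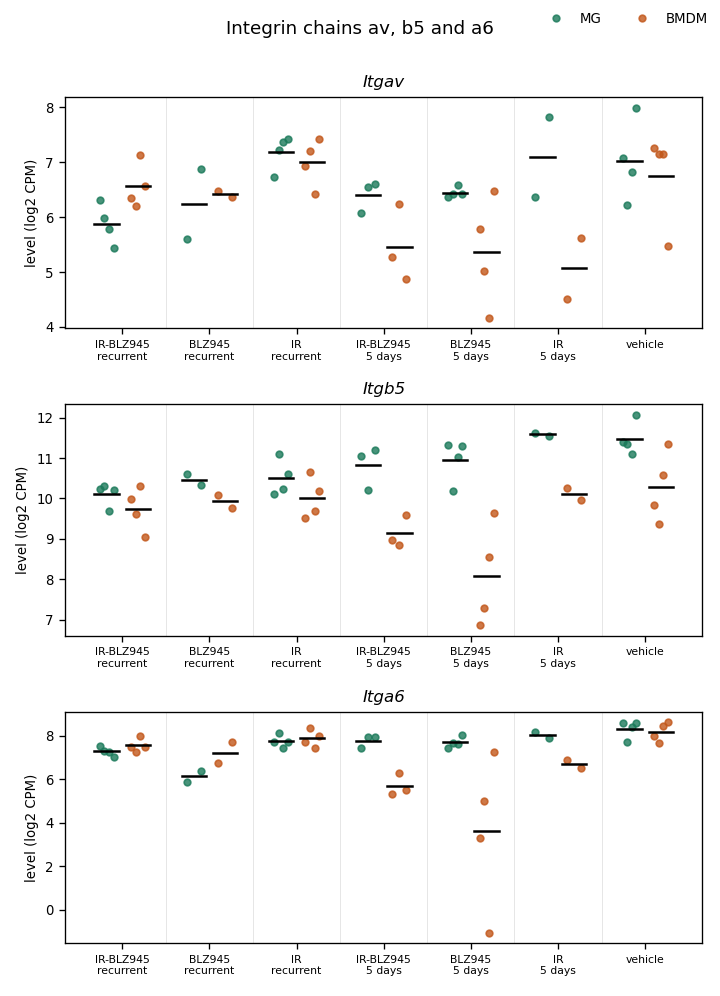
Levels of Itgav, Itgb5 and Itga6 (log2 CPM, vertical axes) in each library, by stage, with MG left of BMDM and black lines at group means. In BMDM the 5-day BLZ945 libraries are widely spread, Itgb5 from 6.86 to 9.63 and Itga6 from -1.05 to 7.26, while MG of that stage holds Itga6 between 7.44 and 8.03.

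The rest of the integrin system was followed in lists of 16 other integrin genes, 31 ligand genes and 34 adaptor genes, of which 16, 28 and 33 were tested between the populations. In vehicle, 1 other integrin was higher and 3 were lower in MG than in BMDM, 6 ligands were higher and 2 lower, and 3 adaptors were higher and 7 lower, where 9.14% of all genes were called in either direction. The medians of the 3 lists were -1.24, 0.62 and -0.04, beside 0.09 over all genes tested. Itgae, the alpha E chain that pairs with beta 7, was 2.23 in MG and 7.24 in BMDM on average (-5.35 ± 0.88, adjusted p = 3.74e-05). Among ligands, the junctional adhesion molecule gene Jam2 averaged 7.34 in MG and 2.52 in BMDM (4.54 ± 0.85, adjusted p = 0.000227), and Cdh1, E-cadherin, which alpha E beta 7 binds, 0.42 in MG and 6.37 in BMDM (-6.32 ± 1.25, adjusted p = 0.000488). Among adaptors, Cd47, an integrin-associated membrane protein, averaged 6.95 in MG and 8.76 in BMDM (-1.80 ± 0.20, adjusted p = 1.09e-07), and Tln2, a talin that links integrin tails to actin, 6.56 in MG and 2.24 in BMDM (3.74 ± 0.77, adjusted p = 0.00077).

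Within BMDM, 24 ligands, 14 other integrins and 33 adaptors were tested. In recurrence against 5 days, 2 ligands were higher for IR-BLZ945, 3 for BLZ945 and 6 for IR, and none was lower, where 3.69%, 6.82% and 12.5% of all genes were called. The medians of the ligands were 0.52, 1.15 and 2.13, beside -0.01, 0.08 and 0.21 over all genes tested. For IR, 4 ligands had 0 counts in 1 of the groups, and with these set to a floor of 3 counts over the group the median was 1.60. Under the Malat1 minus Lars2 term 1 ligand was higher and 1 lower for IR-BLZ945, 2 were higher and 1 lower for BLZ945, and 0 were called for IR, with medians of 0.27, 0.91 and 1.19. Without the doubted libraries 5, 3 and 2 were higher and 0 lower. Of those called for IR, the cytokine gene Tgfb1 was 2.08 ± 0.43 (adjusted p = 0.00414) and -0.21 ± 0.58 with the term (adjusted p = 0.975), the fibronectin gene Fn1 4.65 ± 1.38 (adjusted p = 0.0324) and 0.67 ± 2.63 with it (adjusted p = 0.994), and the thrombospondin gene Thbs1 3.45 ± 1.10 (adjusted p = 0.0436) and 0.43 ± 1.97 with it (adjusted p = 0.9998). Fn1 for BLZ945 was 3.48 ± 1.05 (adjusted p = 0.0474), and 0.41 ± 2.07 with the term (adjusted p = 0.939). Vcam1, the counter-receptor of alpha 4 beta 1, averaged 8.09 in recurrence and 4.33 at 5 days of IR-BLZ945 (3.60 ± 0.78, adjusted p = 0.0126), and 7.85 in recurrence and 3.57 at 5 days of BLZ945 (3.71 ± 0.75, adjusted p = 0.00656). The IR-BLZ945 call had an adjusted p of 0.0716 without 67537, and the BLZ945 difference was 3.55 ± 1.08 with the term for mouse numbers (adjusted p = 0.0826). Neither call ended with the Malat1 minus Lars2 term. Among adaptors, 0 were higher and 4 lower in recurrence for IR-BLZ945, 1 and 1 for BLZ945, and 7 and 4 for IR, beside the shares of all genes given above. With the Malat1 minus Lars2 term these were 0 and 0, 2 and 0, and 0 and 0. For IR the adaptor gene Parvg was higher (2.14 ± 0.30, adjusted p = 0.000146), a call that ended with that term (adjusted p = 0.17). Cd47 was lower in recurrence for IR-BLZ945 (-0.94 ± 0.21, adjusted p = 0.0133) and for IR (-1.24 ± 0.23, adjusted p = 0.00175), and the Cd47 call for IR-BLZ945 had an adjusted p of 0.0767 without 67537. The differences of Cd47 with the Malat1 minus Lars2 term were -0.68 ± 0.28 and -0.74 ± 0.46 (adjusted p = 0.241 and 0.721). Of the other integrins, 1 was called in these comparisons, higher in recurrence for IR, and 0 were called with the Malat1 minus Lars2 term. Against vehicle at 5 days of BLZ945, 5.51% of all genes were called in either direction. No other integrin was called there, 2 ligands were lower, and 2 adaptors were higher and 2 lower. Without the doubted libraries these were 0 ligands, 1 adaptor higher and 1 lower. Fyb, an adaptor that couples to SKAP1 in integrin activation, fell there to 5.96 on average, against 7.49 in vehicle (-1.48 ± 0.31, adjusted p = 0.00795), and Zyx, a focal adhesion protein, rose by 1.27 ± 0.30 (adjusted p = 0.0162).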

How the data were processed

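RNA-seq of 46 libraries (MG and BMDM sorted from 23 mice) was analysed from the deposited table of whole-number counts per gene symbol. Per the submitters' processing notes, the authors used CASAVA 1.8, STAR 2.5.0e, HTSeq, DESeq2 and mm10, and per the labels libraries came from a Smart-Seq kit; the counts carry no molecular identifiers and no strand setting is given in the sources used here. All 46 columns were matched to samples by mouse number and population. In R 4.3.3, edgeR 4.0.16 (filterByExpr with a minimum count of 10 and a minimum total of 15, TMM, prior count 1 for log2 CPM) was fitted by quasi-likelihood to 15901 genes over all libraries for MG against BMDM and for differences in response, and to 14534 (MG) or 14568 (BMDM) genes for stages within a population. Genes were called at a Benjamini-Hochberg adjusted p under 0.05 over all genes of a comparison, and 39 comparisons were made. Total counts of 3007379 to 16993474 limit the precision of low genes. Gene positions and exon lengths came from GENCODE M21. The code was tested on simulated data.

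Alternatives were DESeq2 1.42.0, RLE size factors, no filter, removal of the 6 doubted libraries, terms for short (under 1000) or long mouse numbers and for the Malat1 minus Lars2 level, 1 fit over all 46 libraries, the mouse as a block and each library left out. By the mouse numbers in the labels, MG and BMDM of the same number come from the same mouse, which pairs them. The pair of 65698 is in doubt, since its libraries differed in sex-linked transcripts, and it is kept in the counts over 23 mice. Deviations of paired libraries from group means correlated with a median of 0.153 (-0.0941 to 0.442), over 0.1 in 13 of 23 mice. No pair of libraries of a group agreed within sampling noise (smallest chi-square per degree of freedom 10.1). The 10 genes and the lists were chosen with earlier results of these data known. Besides the 10, genes named were, per list and comparison, up to 4 with the smallest adjusted p among called genes with a mean of at least 3 log2 CPM in a group and no overlap of libraries, and the 5 most like Itga4; not all are printed. A gene of the glioma list is not reported here and is left out of its sum.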

Additional observations from a re-analysis of the deposited data

Results flagged for a closer look

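Among 80 groups of 4 libraries checked, 5 had a library far from the other 3 by Dixon's criterion; chance gives about 1 in 20 groups. Itga4 was 5.98 log2 CPM in BMDM of mouse 124 after 5 days of BLZ945, against 6.88 to 6.96 in the other 3, and this is a doubted library. In MG of the same stage Itga4 was 1.02 in mouse 65975, against 1.75 to 1.90. In vehicle BMDM, mouse 65967 stood low for Itgam, at 7.66 against 9.60 to 9.70, and for Itgav, at 5.48 against 7.14 to 7.25. Itgb5 in MG of recurrent IR-BLZ945 tumours was 9.70 in mouse 67947, against 10.22 to 10.32.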

How the results depend on the processing

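The 18 calls between MG and BMDM became 15 to 19 with each mouse left out and stayed within 1.5 times under every setting tried, with 19 under the mouse block. That block ended 1 member's call, Itgal after 5 days of IR, and added 2, Itgb5 in vehicle and after 5 days of IR. Responses that differed between the populations were 0, 1 with the block (Itga6 at 5 days of BLZ945) and 1 with DESeq2 (Itgb7 in that stage), and the range with each mouse left out was 0 to 2 (2 without 65975). Against vehicle in MG, 6 calls became 10 with DESeq2, 2 with the Malat1 minus Lars2 term, 2 in 1 fit over all 46 libraries and 2 to 8 with each library left out (2 without vehicle 65967, 3 without 67947). Against vehicle in BMDM, 5 became 9 with DESeq2, 9 in 1 fit and 3 to 10 with each library left out (10 without 65972, 3 without 122 or vehicle 41 or 65966). Recurrence calls in MG, 5, became 0 with the Malat1 minus Lars2 term, 2 in 1 fit and 3 to 7 with each library left out (3 without 67169); those in BMDM, 6, became 3 with that term and 3 to 8 with each left out (3 without 67169, 67543, 65698, 68343, 68344, 68346 or vehicle 41 or 78). The 1 combination call in MG became 3 with DESeq2, 0 with the term for mouse numbers, 0 in 1 fit and 0 to 2 with each left out (0 without 65696, 2 without 65971). The 2 in BMDM became 1 without the doubted libraries, 1 with the Malat1 minus Lars2 term and 0 to 3 with each left out (0 without 65698, 1 without 65696). Reversed were Itgal between the populations after 5 days of IR, at 0.19 without 65972, and, with the Malat1 minus Lars2 term, Itgam (-0.15) and the ligand gene Tgfb1 (-0.21) in BMDM in recurrence against 5 days of IR. The causes were not tested. Low counts limit Itga4 in MG, with 13 to 136 reads.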
